A study of Mus musculus with 2 samples.

Results

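The 9 genes described here encode the enzymes that make citrulline, arginine, ornithine, proline and polyamines from one another and from glutamate: Cps1, Otc, Ass1, Asl, Arg2, Oat, Odc1, Aldh18a1 and Pycr1. They were chosen by name, as steps of 1 connected pathway, and all 9 are among the 19294 genes of the count table. Mouse intestinal organoids, closed epithelial structures grown in Matrigel from crypts, were sequenced as 1 control library and 1 library treated with dextran sulfate sodium (DSS), a sulfated polysaccharide used to injure intestinal epithelium. Both libraries came from organoids of the Lgr5-EGFP-IRES-creERT2 genotype, a reporter line in which the Lgr5 promoter of intestinal stem cells drives EGFP and an inducible Cre. Both were grown with EGF, Noggin and R-spondin and are labelled Day 4, and the DSS library had been treated for 4 days. The age of the mice and the DSS concentration of the sequenced culture are not given in the sources used here, and the culture holds epithelium without the immune and stromal cells of the gut wall.

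The small intestine is a main source of citrulline. In its epithelial mitochondria, glutamine and proline carbon is turned into pyrroline-5-carboxylate and then into ornithine, which is joined to carbamoyl phosphate to give citrulline. Citrulline can be made into arginine, arginase splits arginine into urea and ornithine, and ornithine is the branch point between citrulline, proline and the polyamines, small cations that growing cells need.

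Sequencing depth was 65493032 counts for the control and 59746968 for DSS. With 1 library per condition there was no replicate, so no test between the conditions was possible, no p-value was computed, and each 95% interval below covers counting error only. Levels are given as CPM, the counts scaled to a common library size after TMM correction, and levels of different genes are compared only as CPM per kilobase (kb) of transcript, with the longest protein-coding transcript of each gene unless the median transcript length is named. The choice of length shifts the level of a gene by the same factor in both libraries, so it leaves every log2 ratio as it is. The label names intestinal stem cells, but markers of other cell types were present in both libraries and moved with the condition. All 8 stem cell markers lay at a log2 ratio of DSS over control of -1 or less and their summed level went from 1683 to 242 CPM, 7 of 8 cell cycle genes lay at -1 or less and went from 1401 to 246 CPM, and all 12 enterocyte markers lay at 1 or more and went from 4831 to 35299 CPM. All 6 goblet cell markers (753 and 11359 CPM) and all 4 enteroendocrine markers (688 and 3461 CPM) lay at 1 or more, and 3 of 4 Paneth cell markers (494 and 241 CPM) at -1 or less. By RT-PCR, the paper reports Lgr5 and Lyz lower with DSS, as Lgr5 and Lyz1 were here. It reports Muc2 and Chga at similar levels, whereas in these libraries they lay at 4.98 and 2.60, a difference that was not tested. In bulk RNA, fewer cells of a type and less RNA per cell cannot be told apart, and the part of these cell types in the values below was not tested. Several of the 9 genes are also known from liver, but the 5 hepatocyte markers in the table summed to 8.98 CPM without DSS and 12.3 CPM with it, and the other 7 of that list of 12 were not analysed here. The 4 immune markers in the table, of 8, summed to 14.1 and 24.6 CPM, and the 3 mesenchymal markers, of 7, to 1.38 and 1.74 CPM.

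Of the 9 genes, 2 were higher with DSS and 7 lower, with a median log2 ratio of -0.53 beside -0.06 over the 17235 genes that reached 10 counts in either library. All 9 passed that minimum, the lowest count among them being 358. The arginase gene Arg2 was the 1 enzyme gene at a log2 ratio of 1 or more, a line that 19.3% of all genes reached. Cps1, Oat and Pycr1 were the 3 at -1 or less, a line that 20.2% of all genes reached. At the wider lines, Arg2 alone lay at 2 or more (7.87% of all genes) and Pycr1 alone at -2 or less (6.54%). At the narrower lines, Arg2 alone lay at 0.5 or more (30.7% of all genes), while Cps1, Ass1, Oat, Aldh18a1 and Pycr1 lay at -0.5 or less (33.5%). Arg2 stood at percentile 97.0 of all genes by log2 ratio and Pycr1 at percentile 4.98, and the other 7 lay between percentiles 13.0 and 64.4.

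**Figure D1:**
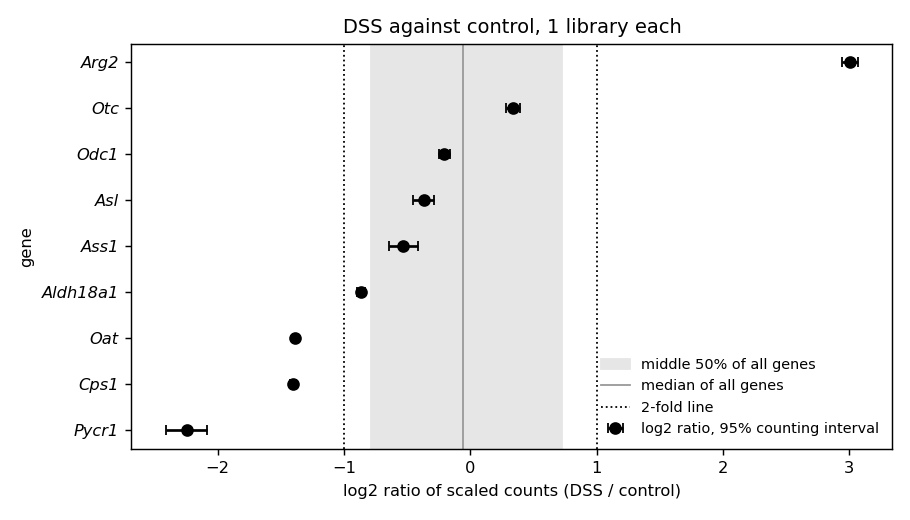
The log2 ratio of scaled counts, DSS over control, is shown on the horizontal axis for each of the 9 genes, with 1 library per condition. Bars are 95% counting intervals, the grey band holds the middle 50% of all genes (-0.79 to 0.73), dotted lines mark 2-fold, and Arg2 at 3.003 and Pycr1 at -2.24 lie farthest from 0.

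The genes that make carbamoyl phosphate and join it to ornithine, Cps1 and Otc, went in opposite directions. Oat and Aldh18a1, which lie before Otc on the route through ornithine, were lower with DSS, at log2 ratios of -1.39 and -0.87, and are given below. Cps1 (gene ID 227231) encodes the mitochondrial carbamoyl phosphate synthetase, which fixes ammonia for the pathway. It had 66011 counts without DSS and 19026 with it, or 922 and 348 CPM. Its log2 ratio was -1.41 (95% interval -1.43 to -1.38), a 2.65-fold lower level with DSS. Otc (18416) encodes ornithine transcarbamylase, which joins carbamoyl phosphate to ornithine to release citrulline. It had 5387 counts without DSS and 5196 with it, or 75.3 and 95.04 CPM. The log2 ratio of Otc was 0.34 (0.28 to 0.39), near the middle of all genes at percentile 64.4, and it came down to 0.08 when the libraries were scaled by their total counts. The ratios of Otc and Cps1 differed by 1.74 on the log2 scale (1.68 to 1.80), a difference that no scaling of the libraries can change. Per kb, there was 0.151 Otc transcript for each Cps1 transcript in the control and 0.506 with DSS. Nags, whose product makes the N-acetylglutamate that Cps1 needs to be active, had 1543 counts without DSS and 1369 with it, a log2 ratio of 0.22 that fell below 0 with total counts.

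Both genes that make arginine from citrulline were lower with DSS, by less than 2-fold. Ass1 (11898) encodes argininosuccinate synthase, which joins citrulline to aspartate. It had 1755 and 929 counts in control and DSS organoids, 24.5 and 17.0 CPM, and a log2 ratio of -0.53 (-0.65 to -0.41). Asl (109900) encodes argininosuccinate lyase, which then releases arginine and fumarate. It had 3290 and 1945 counts, 46.0 and 35.6 CPM, and a log2 ratio of -0.37 (-0.45 to -0.29). The ratios of Asl and Ass1 differed by 0.16 (0.02 to 0.30), and the level of Asl per kb was 1.32 times that of Ass1 in the control and 1.47 times with DSS (2.315 and 2.585 times with median transcript lengths). Sequence of Ass1 is shared with 1 other gene of the table, Gm5424, which matched 73.1% of its transcript at 95% identity or more, so reads could be split between them. Gm5424 had 34 and 23 counts, and with them added the log2 ratio of Ass1 was -0.52.
The 250 bases before the RefSeq start of Ass1 (build GRCm38.p6, chr2:31470020-31470269, plus strand) are shown 5′ to 3′ because they hold an E-box, CACGTG, the letters that MYC and related factors read, in capitals 36 bases before the start:
Ass1: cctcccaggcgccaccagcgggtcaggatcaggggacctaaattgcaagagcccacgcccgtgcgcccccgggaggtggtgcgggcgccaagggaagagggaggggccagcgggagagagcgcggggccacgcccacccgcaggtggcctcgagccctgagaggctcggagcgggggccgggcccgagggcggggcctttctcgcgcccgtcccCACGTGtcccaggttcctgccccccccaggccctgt
CACGTG reads the same on both strands, and 6.02% of the 32851 mouse windows of this length held it. The match is a description of the sequence and no evidence of binding.

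Arg2 was the gene of the pathway that stood apart. Arg2 (11847) encodes the mitochondrial arginase, which splits arginine into ornithine and urea. It had 2348 counts without DSS and 14382 with it, or 32.8 and 263 CPM. Its log2 ratio was 3.003 (2.94 to 3.07), an 8.02-fold higher level with DSS. Among the 13810 genes with a transcript length, Arg2 went from rank 2716 by level per kb in the control to rank 383 in the DSS library. Against the enzymes that supply arginine the change was wider still. The ratio of Arg2 exceeded that of Asl by 3.37 (3.27 to 3.48) on the log2 scale, and their level ratio per kb went from 1.21 to 12.5, or from 0.686 to 7.11 with median transcript lengths. Arg2 exceeded Ass1 by 3.53 (3.40 to 3.66), with a level ratio per kb of 1.59 in the control and 18.4 with DSS. The level of Arg2 was 0.915 of that of Otc per kb in the control and 5.81 times it with DSS, a difference in log2 ratio of 2.67 (2.58 to 2.75). Exons of Arg2 overlap those of Vti1b on the opposite strand. The library kit keeps the strand, but the counting setting is not given in the sources used here. Vti1b had 3598 and 5496 counts, and the log2 ratio of both genes summed was 2.13. Arg1, the cytosolic arginase of liver, had 8 and 14 counts, a log2 ratio of 1.20 whose interval of -0.16 to 2.66 holds 0.

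**Figure D2:**
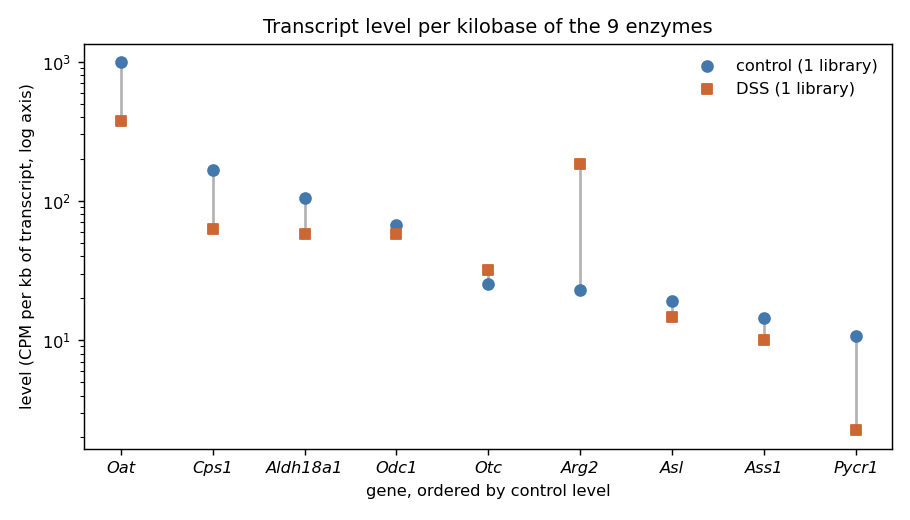
Transcript levels of the 9 genes are plotted as CPM per kb of transcript on a log axis, ordered by the control level, with circles for the control library and squares for the DSS library. Arg2 lay at 23.0 in the control, close to Otc at 25.1, and at 184 with DSS, where Oat alone was higher, at 377, with the longest transcripts plotted. With median lengths Aldh18a1, at 367, also lay above Arg2 in that library.

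Of the genes that use ornithine, the most abundant was lower with DSS and the polyamine gene differed little. Oat (18242) encodes ornithine aminotransferase, the mitochondrial enzyme that links ornithine with pyrroline-5-carboxylate. It had 152185 counts without DSS and 44393 with it, that is 2126 and 812 CPM. The log2 ratio of Oat was -1.39 (-1.40 to -1.37), a 2.62-fold lower level with DSS. It stayed the most abundant of the 9 per kb in both libraries, at rank 74 of all genes with a length in the control and rank 188 with DSS. Its log2 ratio and that of Cps1 differed by 0.02 (-0.01 to 0.05), an interval that holds 0, so these neighbours in the order of ratios could not be told apart by their counts. Every other neighbouring pair in that order differed beyond counting error.
Odc1 (18263) encodes ornithine decarboxylase, which makes putrescine and so opens polyamine synthesis. It had 10556 and 6984 counts, or 147 and 128 CPM, and its log2 ratio was -0.21 (-0.25 to -0.16). That change is small beside the middle 50% of all genes, and over the scalings tried it ranged from -0.46 to -0.12. The ratio of Odc1 exceeded that of Oat by 1.18 (1.14 to 1.23), and its level per kb went from 0.0676 to 0.153 of that of Oat, or from 0.0391 to 0.0886 with median transcript lengths. Otc, which also takes ornithine, exceeded Oat by 1.73 (1.67 to 1.78) in log2 ratio. At 95% identity or more, other genes matched 62.8% of the Odc1 transcript, and adding the 391 and 227 counts of the 4 such genes that each matched at least 10% of it and are in the table left its log2 ratio at -0.21.

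Both genes of proline synthesis were lower with DSS, and the later step was lower by more. Aldh18a1 (56454) encodes pyrroline-5-carboxylate synthase, which makes pyrroline-5-carboxylate from glutamate. It had 26622 counts without DSS and 11161 with it, or 372 and 204 CPM. The log2 ratio of Aldh18a1 was -0.87 (-0.90 to -0.83), inside the 2-fold line, which it passed with total counts, at -1.12. Pycr1 (209027) encodes a mitochondrial pyrroline-5-carboxylate reductase, which makes proline. It had 2217 counts without DSS and 358 with it, or 31.0 and 6.55 CPM. The log2 ratio of Pycr1 was -2.24 (-2.41 to -2.08), a 4.73-fold lower level, the lowest ratio of the 9 genes. By level per kb of its longest transcript it went from rank 5229 to rank 9200. The ratios of Aldh18a1 and Pycr1 differed by 1.38 (1.21 to 1.54), and Aldh18a1 was 9.92 times as abundant per kb as Pycr1 in the control and 25.8 times with DSS, or 18.1 and 47.1 times with median transcript lengths. Pycr3, a further reductase gene, listed under its older symbol Pycrl, had 4126 and 1642 counts and a log2 ratio of -0.94 (-1.02 to -0.86).
The 250 bases before the starts of these genes are shown because each holds 1 of the motifs searched, in capitals. For Pycr1 (GRCm38.p6, chr11:120643749-120643998, minus strand) it is TGATGCAAT, 103 bases before the start, a match to the element of ATF4 and its partners (TGATGNAAN, both strands searched), which 3.44% of all windows held. For Aldh18a1 (GRCm38.p6, chr19:40588464-40588713, minus strand) it is the E-box CACGTG, 59 bases before the start:
Pycr1: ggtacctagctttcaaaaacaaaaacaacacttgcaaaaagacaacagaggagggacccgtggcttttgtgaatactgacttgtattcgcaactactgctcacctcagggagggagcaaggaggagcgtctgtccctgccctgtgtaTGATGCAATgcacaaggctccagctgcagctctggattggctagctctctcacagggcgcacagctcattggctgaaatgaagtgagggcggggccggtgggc
Aldh18a1: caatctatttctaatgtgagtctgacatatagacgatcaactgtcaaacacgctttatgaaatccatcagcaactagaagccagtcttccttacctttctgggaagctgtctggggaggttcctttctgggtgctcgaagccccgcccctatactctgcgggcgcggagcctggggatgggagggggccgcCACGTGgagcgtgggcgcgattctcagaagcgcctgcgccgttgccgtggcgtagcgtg
The windows of Oat, Odc1 and Otc held neither motif, nor the HNF4 element CAAAGTCCA or its reverse complement, which 0.384% of all windows held. Windows were matched for 6 of the 9 genes by symbol, all but Cps1, Asl and Arg2.

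The summed transcripts of the 9 genes were fewer with DSS and made up differently. Counts of the 9 genes summed to 270371 in the control and 104374 with DSS, 0.413% and 0.175% of all counts. Their summed level went from 1419 to 799 CPM per kb. The largest part of it, Oat, went from 988 to 377, Cps1 from 166 to 62.6 and Aldh18a1 from 105 to 57.9. Arg2 went the other way, from 23.0 to 184, so the fall of the sum does not describe each gene. Oat made up 69.7% of that sum in the control and 47.2% with DSS, and Cps1 11.7% and 7.84%. Arg2 went from 1.62% to 23.1% and from the sixth place to the second. Otc went from 1.77% to 3.97% and Odc1 from 4.71% to 7.24%, while Aldh18a1 held 7.43% and 7.25%. The least abundant shares were those of Asl (1.34% and 1.85%), Ass1 (1.02% and 1.25%) and Pycr1 (0.749% and 0.281%). These shares and places rest on the longest transcripts. The median transcript length of Aldh18a1 is 556.5 bases, against 3527 for both its longest and its RefSeq-paired transcript. With median transcript lengths Aldh18a1 lay at 668 CPM per kb in the control and 367 with DSS and made up 24.3% and 26.1% of the sum, second to Oat in both libraries (62.2% and 46.5%). Arg2 then went from 0.836% to 13.1%, from the eighth place to the third.

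**Figure D3:**
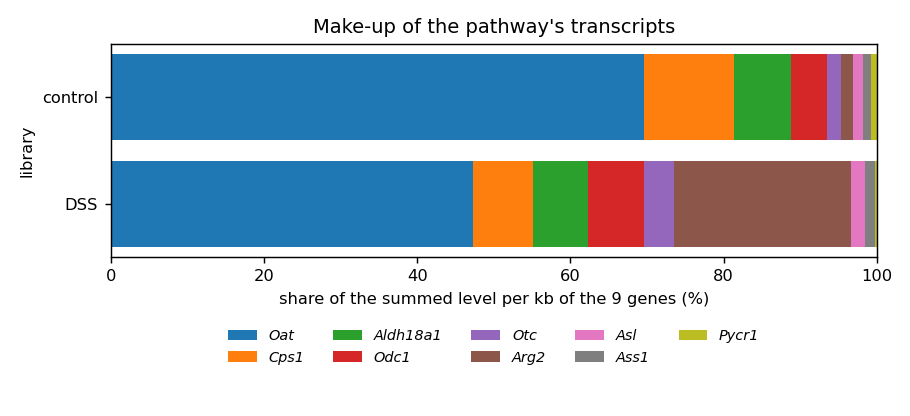
Each bar is 1 library, divided by the share of each gene in the summed level per kb of the 9 genes (%). Oat takes 69.7% of the control bar and 47.2% of the DSS bar, and Arg2 grows from 1.62% to 23.1%, with levels per kb of the longest transcripts.

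Around these enzymes, the list of glutamine, glutamate and proline genes held about as many genes past the lines as all genes do, while single genes on it differed widely. Of its 15 genes, 3 lay at a log2 ratio of 1 or more (19.3% of all genes) and 4 at -1 or less (20.2% of all genes), with a median of -0.65 beside -0.06 over all genes. The 3 include Prodh2, at 1.04 (0.01 to 2.12) from 14 and 22 counts. Gls2, a glutaminase, had 579 counts without DSS and 35 with it, a log2 ratio of -3.66 (-4.20 to -3.17). Prodh, proline oxidase, which opens the route from proline to pyrroline-5-carboxylate, had 602 and 116 counts and a log2 ratio of -1.99 (-2.29 to -1.70). Thus the first step of proline breakdown and the last of its synthesis were both lower. In the other direction, Gpt, the cytosolic alanine aminotransferase, had 1903 and 10898 counts and a log2 ratio of 2.91 (2.84 to 2.98). Pepd, the dipeptidase that frees proline from peptides, had 3099 and 5318 counts, a log2 ratio of 1.17 (1.10 to 1.23).

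Other users of arginine and citrulline did not move 1 way. Of the 14 genes of that list, 12 passed the count minimum, 3 lay at 1 or more and 2 at -1 or less (19.3% and 20.2% of all genes), and the median was 0.15. The 3 include Arg1, from 8 and 14 counts, and Padi2, at 1.03 (0.54 to 1.53) from 59 and 92 counts. Nos2, the inducible nitric oxide synthase, which turns arginine back into citrulline, had 352 and 877 counts, a log2 ratio of 1.71 (1.53 to 1.89). Gatm, which takes arginine toward creatine, had 175 and 24 counts and a log2 ratio of -2.48 (-3.16 to -1.86). Agmat, annotated as agmatinase, had 2201 and 705 counts and a log2 ratio of -1.25 (-1.38 to -1.13). Of the arginine users on these lists, the arginase and nitric oxide synthase genes Arg2 and Nos2 were thus higher with DSS and the creatine gene lower.

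The spermidine synthase gene, downstream of Odc1, was lower with DSS. The polyamine list also holds regulators of the Odc1 protein, polyamine pumps and breakdown enzymes. Of its 23 genes, 21 were in the table, 2 lay above 0 and 19 below, 2 at 1 or more and 6 at -1 or less (19.3% and 20.2% of all genes), with a median of -0.66. Over all genes, 48.0% lay above 0. Oaz1 and Sat1 lay so near 0 that they crossed it with upper quartile factors. Srm, spermidine synthase, had 2556 counts without DSS and 293 with it, a log2 ratio of -2.74 (-2.92 to -2.56). The ratio of Odc1 exceeded that of Srm by 2.53 (2.35 to 2.71), and Odc1 was 2.50 times as abundant per kb as Srm in the control and 14.4 times with DSS. Sms, spermine synthase, lay at -0.38. The 2 S-adenosylmethionine decarboxylase genes lay at -0.66 (Amd1) and -0.74 (Amd2), but they are near-identical and the split of reads between them is uncertain. Genes that set the life of the Odc1 protein differed among themselves. Oaz1, the main antizyme, which steers ornithine decarboxylase to the proteasome, had 17936 and 13506 counts and a log2 ratio of -0.02 (-0.05 to 0.01). Oaz2, a second antizyme gene, lay at -0.73 (-0.82 to -0.63). Azin1, an antizyme inhibitor, had 9356 and 16770 counts, a log2 ratio of 1.23 (1.19 to 1.27). Azin2 had 230 and 340 counts, a log2 ratio of 0.95 (0.71 to 1.20).

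Genes of transport, mainly of amino acids, lay on both sides. Of 17 genes in the table, 8 lay at 1 or more and 4 at -1 or less (19.3% and 20.2% of all genes), with a median of 0.76. The 8 include Slc22a18, an organic ion transporter gene, at 1.22, and Slc25a2, at 2.13 (0.17 to 4.62) from 3 and 10 counts. Slc25a15, the mitochondrial ornithine carrier that supplies Otc and exports citrulline, had 8785 and 13770 counts and a log2 ratio of 1.04. Carriers of arginine and other basic amino acids went both ways. Slc7a2 had 2291 and 168 counts, a log2 ratio of -3.38 (-3.62 to -3.15), and Slc7a1 had 10013 and 3536 counts, a log2 ratio of -1.11. Slc7a6, a light chain of an arginine and glutamine exchanger, had 2446 and 479 counts and a log2 ratio of -1.96 (-2.11 to -1.82). Its sister chain Slc7a7 had 3786 and 4888 counts and a log2 ratio of 0.76 (0.70 to 0.82), and Slc3a2, the heavy chain of both, lay at 0.58. Slc1a5, another amino acid carrier of the list, was lower, with 12820 and 3003 counts and a log2 ratio of -1.71 (-1.76 to -1.65). Some genes of apical uptake were higher, basic amino acid carriers among them. Slc6a19, the brush border carrier of neutral amino acids, had 1358 and 5771 counts, a log2 ratio of 2.48 (2.39 to 2.56). Slc3a1 and Slc7a9, the chains of the apical carrier of cystine and basic amino acids, lay at 1.81 and 1.79. Slc7a8, a basolateral carrier of neutral amino acids, had 1886 and 6262 counts and a log2 ratio of 2.12 (2.05 to 2.19). Enterocyte markers were higher in the same library, and their part in these carriers was not tested.

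ATF4, a transcription factor of the amino acid response, is known to act on proline and serine synthesis genes, and the list of 16 genes around it was split. Of these, 2 lay at 1 or more and 6 at -1 or less (19.3% and 20.2% of all genes), with a median of -0.45. Atf4 itself had 24420 counts without DSS and 27181 with it, a log2 ratio of 0.54. Its known target Slc7a11, the cystine importer, had 1614 and 5281 counts and a log2 ratio of 2.10 (2.02 to 2.18). Serine and glycine synthesis genes were lower, as Pycr1 was. Phgdh, the first step from glycolysis to serine, had 11938 and 716 counts, a log2 ratio of -3.67 (-3.78 to -3.56). Psat1, the next step, and Shmt2, which turns serine into glycine in mitochondria, each lay at -1.91. Cell cycle genes were lower in the DSS library as well, and their part in these values was not tested.

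**Figure D4:**
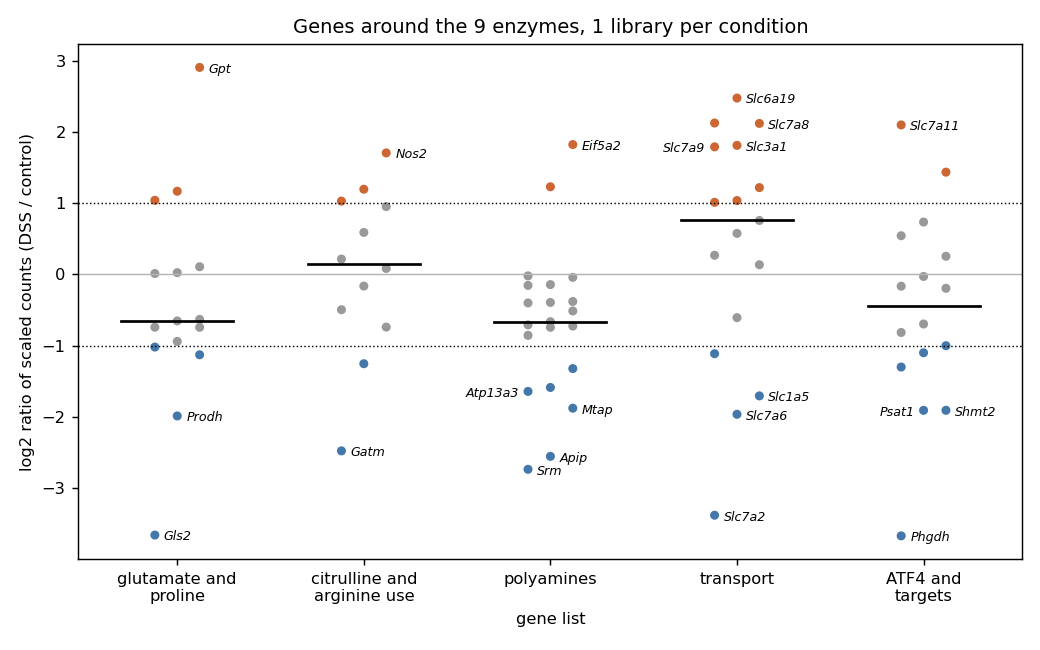
Each point is 1 gene of the 5 lists around the enzymes, placed by its log2 ratio of scaled counts, DSS over control, with 1 library per condition. Black bars are list medians and dotted lines mark 2-fold. The transport list has the highest median, 0.76, and the polyamine and glutamate and proline lists the lowest, -0.66 and -0.65.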

How the data were processed

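Per the labels, RNA of both cultures was prepared with a stranded mRNA kit, and the submitters' processing notes name HISAT2 and StringTie. Versions, the genome build and the strand setting of the counting are not given in the sources used here. The authors deposited raw counts per gene for 1 control and 1 DSS library, although the files of the single samples are named after another unit. Their values equal those of the joint table for all 19294 genes, and the joint table was used. Every gene in it had at least 1 count in each library.

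Counts were scaled with TMM factors (1.09 for the control, 0.915 for DSS) in edgeR 4.0.16 under R 4.3.3. No model was fitted and no test was run, because each group had 1 library. The log2 ratio of scaled counts carries an exact Clopper-Pearson 95% interval (scipy 1.17.1), and the difference of the ratios of 2 genes a Woolf interval. Intervals cover counting error only, because each group had 1 library. PCR duplicates were not removed by identifiers, and any left in would make the intervals too narrow. Shares of all genes used the 17235 genes that reached 10 counts in either library. Levels per kb used the longest protein-coding GENCODE transcript, and places and shares by level change with that choice. Shared sequence was sought with blastn 2.17.0. Promoter windows, 250 bases before each start, came from RefSeq on GRCm38.p6. Scripts were tested on simulated counts.

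The 9 genes and the gene lists were chosen with earlier results of these data known. Of each list around the enzymes, the up to 4 genes with the largest absolute log2 ratio and at least 100 counts in 1 library were named, with Arg1, Nos2, Pycr3, and the antizyme and antizyme inhibitor genes. Nags, Sms, Sat1, Amd1, Amd2, Atf4, Padi2, Prodh2, Slc25a15, Slc25a2, Slc1a5, Slc22a18, Slc7a1, Slc7a7, Slc7a9, Slc3a1, Slc3a2, Vti1b, the markers Muc2, Chga, Lgr5 and Lyz1 and the genes under the other observations were named after their values were seen. Some genes of the lists are counted but not reported singly here. Results were recomputed with size factors of DESeq2 1.42.0, with upper quartile factors and with unscaled totals, after thinning the deeper library, with 2 prior counts, under other count minimums, at lines of 2 and 0.5, and with other transcript lengths.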

Additional observations from a re-analysis of the deposited data

How the results depend on the processing

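With 1 library per condition, nothing here separates an effect of DSS from variation between cultures, and no paired analysis was possible because each group has 1 library. No gene of the 9 changed sign under any scaling tried. Total counts moved the median of all genes by -0.26, DESeq2 size factors by 0.0058 and upper quartile factors by 0.09. With total counts, the median of the 9 genes was -0.79. The genes at a log2 ratio of 1 or more then came to 1 for glutamate and proline, 1 for arginine and citrulline use, 1 for polyamines and 5 for transport. At a line of -2, 1 of the 9 genes was called lower, and at -0.5, 5 were. The other 77 values that answer a comparison stayed within the bounds set for them, which let a count of genes change somewhat. The ATF4 list is 1 such case, with 7 genes at -1 or less with total counts and 6 in the main setting. Of the values of single genes, 34 moved beyond their counting interval and 77 did not. With the median transcript length of each gene, levels per kb in control and DSS were 668 and 367 for Aldh18a1 (105 and 57.9 with the longest), 36.9 and 7.80 for Pycr1, 33.5 and 25.9 for Asl, 1710 and 653 for Oat and 28.3 and 35.8 for Otc, which changes the order of the levels but no log2 ratio. With RefSeq-paired lengths, Otc lay at 32.5 CPM per kb in the control and 41.0 with DSS, and the other genes of the 9 stayed as with the longest transcripts. Some alternatives were chosen after seeing the data: the median of all genes set to 0, RefSeq-paired lengths, and summed counts of genes that share or overlap sequence. The last gave a log2 ratio of 2.13 for the counts of Arg2 and Vti1b summed, against 3.003 for Arg2 alone. That sum includes the 3598 control and 5496 DSS counts of Vti1b. Whether reads of Vti1b were counted under Arg2 was not tested.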

Other observations

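Listed genes of the salvage route that returns methylthioadenosine, the by-product of spermidine and spermine synthesis, to methionine were lower with DSS. All 5 genes of this route on the polyamine list lay below 0, and 4 of them at a log2 ratio of -1 or less. Over all genes, 48.0% lay above 0 and 20.2% at -1 or less. Mtap, the phosphorylase that opens the route, had 2589 counts without DSS and 538 with it, a log2 ratio of -1.88 (95% interval -2.01 to -1.74). Apip, a dehydratase of the middle of the route, had 100 and 13 counts, a log2 ratio of -2.55 (-3.51 to -1.72) that rests on few reads. Adi1 (5314 and 1351 counts) lay at -1.59, Mri1 at -1.32 and Enoph1 at -0.51.

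Spermidine is also the donor of hypusine, the residue that activates the translation factor eIF5A. The enzymes that make it, Dhps and Dohh, lay at -0.15 and -0.14, within the middle 50% of all genes, and with upper quartile factors stayed below 0. The 2 genes of the factor went apart. Eif5a had 34831 counts without DSS and 16281 with it, a log2 ratio of -0.71. Its less abundant paralog Eif5a2 had 91 and 246 counts, a log2 ratio of 1.82 (1.47 to 2.19). Atp13a3, a pump for polyamine uptake, had 27014 and 6609 counts and a log2 ratio of -1.64.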
